A study of Drosophila melanogaster with 20 samples.

Results

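The arrays allowed 15 nuclear genes for mitochondrial respiration, protein synthesis and protein import to be followed. They were taken as every gene with a single current symbol whose name begins with the prefix of a subunit of the respiratory chain complexes or the ATP synthase, of the mitochondrial ribosome, of the Tim and Tom import machinery or of the mitochondrial pyruvate carrier. That gave 15 of the 2377 gene symbols on the arrays, out of 182 genes of Drosophila melanogaster with such a name in the RefSeq annotation. Of these, 10 of 91 annotated genes belong to respiration, 3 of 73 to the ribosome and 2 of 15 to import, and none of the 3 pyruvate carrier genes had a spot with a single symbol. The values describe this sample of the machinery and not each complex as a whole.

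The respiratory chain passes electrons from NADH and succinate through complexes I to IV in the inner mitochondrial membrane to oxygen, and the proton gradient this builds drives the ATP synthase. Most subunits, and all proteins of the mitochondrial ribosome that translates the few genes of mitochondrial DNA, are encoded in the nucleus and brought in through the Tom channel of the outer membrane and the Tim machinery behind it. In the fly, flight muscle is rich in these complexes, and many nuclear mitochondrial genes have a second copy, often named with a final L for "like", that is expressed mainly in the testis. SdhCL and ATPsynGL were examined as testis-type paralogs, and SdhBL, UQCR-11L, COX6AL and COX7AL carry the same final letter.

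RNA came from whole adult females of the Oregon-R strain, 4 to 10 days after emergence, kept on a daily cycle of 16 h light to 8 h dark in air of 60% humidity. A Potter's tower delivered 2 mL of mist, made of 99% ethanol holding one of 3 preparations, and RNA was extracted 6 h later from about 240 pooled flies per extract. The pepper group received an ethyl acetate extract of Piper nigrum seed at 0.2 mg/mL, the pyrethrin group pyrethrin at 0.04 mg/mL, and the combination group both agents, with 0.1 mg/mL of the seed extract and 0.004 mg/mL of pyrethrin. Controls of the same strain, sex and age received 99% ethanol alone. Since the combination held less of each agent than the single treatments, differences between treatments are comparisons of these preparations and not tests of synergy. Piper nigrum is black pepper, whose amides are known to inhibit detoxifying enzymes, and pyrethrins are plant insecticides that act on sodium channels of nerves.

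Each treatment had 4 treated extracts, each set against an ethanol extract on 2-colour cDNA arrays. The 4 extracts of the pepper group and the 4 of the combination group were measured on 2 arrays with the dyes exchanged, and the 4 of the pyrethrin group on 1 array with the treated RNA in Cy3. The 20 arrays held 13953 to 16853 values each, and duplicate spots of an array correlated at 0.172 to 0.728. The deposited ratio was read as treated over ethanol, a direction that is likely but not stated in the labels. It rests on the labels, which put the treated RNA in channel 2 of every array, on residuals of dye-exchanged arrays that correlated positively in 8 of 8 extracts, and on Cyp12d1-p, a detoxifying P450 enzyme known to be induced by xenobiotics, which lay above 0 in 12 of 12 extracts (mean log2 ratio 0.42). Cyp12d1-p is a single gene read from these same data, and its pyrethrin values carry the dye correction. Of all features 0.217% kept 1 sign in every measured extract of all 3 treatments. The residual test shows that both orientations were written the same way and not which RNA is the numerator, so a ratio written as ethanol over treated would turn every sign below and leave every size. Of the 20 arrays, 2, the Cy5 arrays of pepper replicates 3 and 4, carry titles of another study and were kept by their source names. RNA of whole flies does not tell fewer cells of a type from less RNA per cell, and a ratio gives no level, so genes are not compared by abundance.

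All 15 genes passed the requirement of a value in at least 3 of 4 extracts of every treatment, which left 11526 features for the tests. Of the genes, 13 had 2 spots and the other 2, ND-13A and SdhBL, had 4. Their 34 spots gave 654 of 680 possible values (96.2%, against 94.6% over all spots). SdhCL had the fewest, 77.5% of its values, and its pepper replicate 3 had no value because one of its arrays lacked the gene, as was also so for COX7AL. The 2 spots of SdhCL differed by a median of 0.376 on the log2 scale, those of ATPsynGL by 0.359 and those of COX6AL by 0.449, against 0.0657 for COX7C and 0.08 for ND-51.

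None of the 15 genes passed an adjusted p of 0.05 (limma, Benjamini-Hochberg over all 11526 features) in any of 6 comparisons, the 3 treatments against ethanol and the 3 differences between treatments. Of all features, 0% passed after pepper, 0% after the combination and 0.0607% after pyrethrin, and 0% passed in each of the 3 differences. At an unadjusted p under 0.05, 1 of the 15 genes stood out after pepper (3.27% of all features), 2 after the combination (8.7%) and 1 after pyrethrin (9.99%). In the differences these counts were 2 for combination minus pepper (4.63%), 3 for combination minus pyrethrin (12.1%) and 1 for pyrethrin minus pepper (5.62%). The values that follow are therefore measurements with their spread, and none is a called change; Tim9a after pyrethrin passed under another dye correction, given with its values. Leaving out 1 extract moved 39 of the 45 gene and treatment means by over 1.5 times or across 0, and 17 of them across 0.

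**Figure D1:**
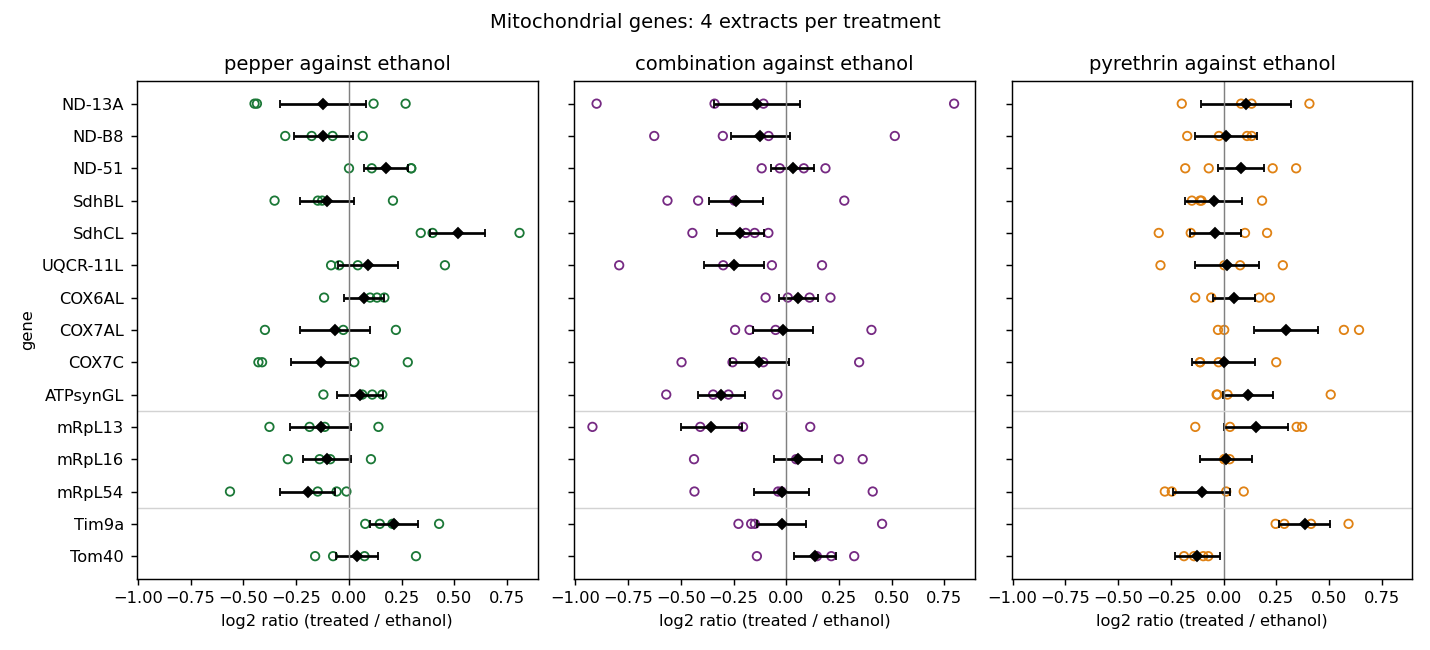
Log2 ratio of treated over ethanol (horizontal axis) for each of the 15 genes (rows), in 3 panels by treatment with a shared axis. Open circles are the 4 extracts of a treatment (3 for SdhCL and COX7AL after pepper), black diamonds the fitted mean and bars its standard error; grey lines part respiration, ribosome and import. SdhCL lies above 0 in each measured pepper extract and below 0 in each combination extract, and ND-13A spreads from -0.90 to 0.80 after the combination.

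The 3 subunits of complex I, which oxidises NADH, did not move as one. ND-51, the subunit that binds NADH and the flavin, lay above 0 in 4 of 4 pepper extracts with a mean log2 ratio of 0.17 ± 0.10 (SE, n = 4), and averaged 0.03 after the combination and 0.08 after pyrethrin. The 4 pepper means joined arrays of opposite sign, with all Cy3 arrays above 0 (0.41 to 0.98) and all Cy5 arrays below (-0.50 to -0.02), and the lowest mean was 0.0005. Read by channel, as Cy5 over Cy3, ND-51 was -0.45 after pepper (limma adjusted p = 0.00229). That value is its dye effect over the pepper pairs with the sign turned. ND-13A, an accessory subunit, stood at -0.45, 0.27, -0.44 and 0.12 in pepper replicates 1 to 4. In the combination it stood at -0.11 in replicate 2, -0.90 in replicate 4, -0.34 in replicate 5 and 0.80 in replicate 6. The combination extracts thus held both the lowest and the highest value of this gene, with an SD of 0.71 around a mean of -0.14. After pyrethrin it stood at 0.41, -0.20, 0.13 and 0.08 in replicates 1, 2, 4 and 5, and the ranges of the 3 treatments overlapped. ND-B8, another accessory subunit, ran from -0.63 to 0.51 after the combination and averaged -0.12 after pepper, -0.12 after the combination and 0.01 after pyrethrin.

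Complex II, succinate dehydrogenase, was represented by paralogs of its iron-sulphur subunit (SdhBL) and of its membrane anchor (SdhCL). SdhCL stood at 0.81 in pepper replicate 1, 0.40 in replicate 2 and 0.34 in replicate 4. In the combination it stood at -0.15 in replicate 2, -0.19 in replicate 4, -0.08 in replicate 5 and -0.44 in replicate 6. After pyrethrin it stood at 0.10, -0.16, -0.31 and 0.21 in replicates 1, 2, 4 and 5. Every measured pepper extract was above 0 and above every extract of both other treatments, every combination extract was below 0, and the pyrethrin extracts lay on both sides.

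The fitted log2 ratio of SdhCL after pepper was 0.52 ± 0.13 (SE, n = 3), 1.43-fold, with an unadjusted p of 0.00152 and an adjusted p of 1 in limma. It was -0.22 ± 0.11 after the combination (n = 4; limma adjusted p = 0.59) and -0.04 ± 0.12 after pyrethrin (n = 4; limma adjusted p = 0.937). The difference of combination minus pepper was -0.73 ± 0.17 (95% confidence interval -1.10 to -0.36), with an unadjusted p of 0.000857 and an adjusted p of 0.886 in limma. Pyrethrin minus pepper was -0.55 (interval -0.93 to -0.17; limma unadjusted p = 0.00753, adjusted p = 0.839), and combination minus pyrethrin was -0.18 (interval -0.53 to 0.17). SdhCL was the only one of the 15 genes with every extract of one treatment above and every extract of another below 0, for combination minus pepper, a pattern met by 0.92% of all features; none of the 15 had it for combination minus pyrethrin (2.26%) or pyrethrin minus pepper (1.16%). Its pepper and combination extracts, and its pepper and pyrethrin extracts, did not overlap, as was so for 3.75% and 4.87% of all features.

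The 2 dye orientations gave different SdhCL values after pepper. With the treated RNA in Cy5 its ratio was 1.16, 0.73 and 0.76 in replicates 1, 2 and 4, and with the treated RNA in Cy3 it was 0.46, 0.06, 0.39 and -0.08 in replicates 1 to 4. All Cy5 arrays lay above all Cy3 arrays, and 3 of the 4 Cy3 arrays were above 0. From Cy3 arrays alone, combination minus pepper was -0.44 (limma adjusted p = 0.488 in that fit). Replicate 4 is one of the pepper extracts with an array of foreign title; without both such arrays the mean after pepper was 0.43.

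**Figure D2:**
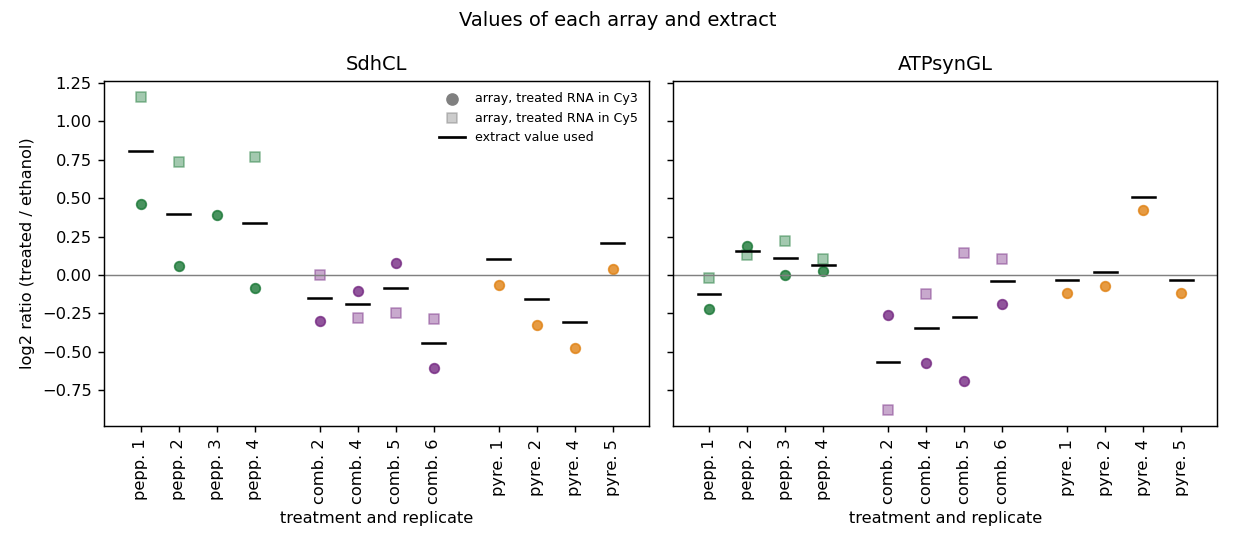
Log2 ratio of treated over ethanol (vertical axis) for SdhCL and ATPsynGL, by treatment and replicate (horizontal axis). Circles are arrays with the treated RNA in Cy3, pale squares arrays with it in Cy5, and black lines the extract value used, the mean of both arrays or, for pyrethrin, the Cy3 array after the dye correction. The SdhCL squares of pepper lie at 0.73 to 1.16, above each circle of the same extract, and the ATPsynGL lines of the combination lie at -0.57 to -0.04.

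SdhBL averaged -0.10 after pepper, -0.24 ± 0.13 after the combination (3 of 4 extracts below 0) and -0.05 after pyrethrin. Complex III was represented by UQCR-11L alone, a paralog of a small subunit of the cytochrome bc1 complex, which averaged 0.09 after pepper, -0.25 ± 0.14 after the combination (range -0.79 to 0.17) and 0.02 after pyrethrin. The UQCR-11L mean after the combination was -0.07 without replicate 4. Neither gene had 1 sign in all extracts of a treatment.

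Of complex IV, cytochrome c oxidase, the arrays held COX7C and the paralogs COX6AL and COX7AL, all small nuclear subunits. COX7C had the lowest mean of the respiration genes after pepper, -0.13 ± 0.14 (range -0.43 to 0.28, n = 4), and -0.04 without replicate 3. It averaged -0.13 after the combination (range -0.50 to 0.35) and lay at 0 within its standard error of 0.15 after pyrethrin. COX6AL had the highest mean of the respiration genes after the combination, 0.06 ± 0.09. COX7AL had the highest after pyrethrin, 0.30 ± 0.15 (limma unadjusted p = 0.0706, adjusted p = 0.541), from 2 extracts at 0.64 and 0.57 and 2 close to 0, and was 0.18 without replicate 4. Its difference of pyrethrin minus pepper, 0.36 ± 0.22, was the largest positive one of the 15 genes in that comparison, and the extracts overlapped.

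ATPsynGL, a paralog of subunit g in the membrane part of the ATP synthase, stood at -0.57 in combination replicate 2, -0.35 in replicate 4, -0.27 in replicate 5 and -0.04 in replicate 6. It stood at -0.12, 0.16, 0.11 and 0.06 in pepper replicates 1 to 4. After pyrethrin it stood at -0.03 in replicate 1, 0.02 in replicate 2, 0.51 in replicate 4 and -0.03 in replicate 5. All combination extracts were below 0 and below all pyrethrin extracts, while 1 combination extract lay within the pepper range. The fitted mean after the combination was -0.31 ± 0.11 (SE, n = 4), 1.24-fold lower than ethanol, with an unadjusted p of 0.0138 and an adjusted p of 0.504 in limma.

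After pepper ATPsynGL averaged 0.05 ± 0.11, and after pyrethrin 0.12 ± 0.12, which was -0.01 without replicate 4. Combination minus pyrethrin was -0.42 (interval -0.77 to -0.08; limma unadjusted p = 0.0188, adjusted p = 0.335), a difference whose extracts did not overlap, as was so for 6.85% of all features. It was -0.29 without pyrethrin replicate 4. Combination minus pepper was -0.36 (interval -0.69 to -0.03; limma unadjusted p = 0.0354, adjusted p = 0.978), and pyrethrin minus pepper was 0.06 (interval -0.28 to 0.41). The 2 arrays of an extract agreed in sign in 2 of the 4 combination extracts, replicates 2 and 4; in replicates 5 and 6 the Cy3 array was below 0 and the Cy5 array above.

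SdhCL and ATPsynGL, set against the other 13 genes, were on the same side of 0 as each other after pepper (means 0.52 and 0.05) and after the combination (-0.22 and -0.31), and on opposite sides after pyrethrin (-0.04 and 0.12). The other 13 genes had a median of -0.10 after pepper, -0.02 after the combination and 0.02 after pyrethrin. Above 0 were 5, 4 and 10 of them, against 51.4%, 53.7% and 48.6% of all features. Across the 11 extracts with a value for both, SdhCL and ATPsynGL correlated at r = 0.0422. Within the treatments, after the treatment means were subtracted, the correlation was -0.766, so extracts of one treatment with a higher SdhCL tended to a lower ATPsynGL. By dye orientation, without that subtraction, it was -0.187 over 12 Cy3 arrays and 0.196 over 7 Cy5 arrays. The points share arrays and duplicate spots of low agreement, and the share over other features was not computed. The 6 genes with a final L had a median of 0.06 after pepper, -0.23 after the combination and 0.03 after pyrethrin, against -0.12, -0.13 and 0.05 for the 4 respiration genes without it.

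The flies were females, so transcripts known from the male tract were listed beside these paralogs. Of 36 such genes, 6 were measured: ocn, dj, betaTub85D, Acp36DE, Acp53C14a and bb8. Their median log2 ratio was -0.0041 after pepper, -0.0957 after the combination and 0.2531 after pyrethrin. Above 0 were 3, 1 and 6 of these 6 genes, against 51.4%, 53.7% and 48.6% of all features. Their mean per extract ran from -0.14 to 0.16 after pepper, from -0.15 to 0.18 after the combination and from 0.16 to 0.49 after pyrethrin. The list was highest after pyrethrin, where ocn passed the test (log2 ratio 1.05, limma adjusted p = 0.0476), whereas SdhCL was highest after pepper. Of all features 7 passed there. That count was 0 in a model on all arrays with a dye term, and 148 with the dye effect from pepper pairs alone. The list was not recomputed under such settings. A part of male tract RNA in the SdhCL and ATPsynGL values was not tested, and ratios give no level of any of these transcripts.

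The mitochondrial ribosome was represented by 3 proteins of its large subunit, mRpL13, mRpL16 and mRpL54. mRpL13 stood at -0.41 in combination replicate 2, -0.92 in replicate 4, -0.20 in replicate 5 and 0.11 in replicate 6, a mean of -0.35 ± 0.14 (limma unadjusted p = 0.0266, adjusted p = 0.542). Replicate 4 decided much of this value, which was -0.17 without it. The gene averaged -0.13 after pepper and 0.15 ± 0.15 after pyrethrin. Combination minus pyrethrin was -0.51 (interval -0.96 to -0.06, limma unadjusted p = 0.0286, adjusted p = 0.361), the largest negative difference of the 15 genes in that comparison. Its extracts overlapped, and it was -0.32 without combination replicate 4. Without the dye correction the pyrethrin mean of mRpL13 was -0.20 and this difference was -0.16. That mean was -0.02 with the dye effect of the pepper pairs alone and 0.33 with that of the combination pairs alone.

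mRpL54 lay below 0 in 4 of 4 pepper extracts with a mean of -0.20 ± 0.13 (limma adjusted p = 1), but replicate 4, at -0.56, was far below the others and the mean was -0.07 without it. It averaged -0.02 after the combination and -0.10 after pyrethrin, and combination minus pepper, 0.17 ± 0.18, was the largest positive difference of the 15 genes there. Pepper replicate 4 joined a Cy5 array of foreign title at -1.39 and a Cy3 array at 0.26. Without both arrays of foreign title mRpL54 averaged 0.09 after pepper and the difference was -0.11, and on Cy3 arrays alone the difference was -0.38. mRpL16 averaged -0.10 ± 0.12 after pepper, 0.06 ± 0.12 after the combination and 0.01 after pyrethrin, where its 4 extracts spanned only 0.0032 to 0.0287. All 3 ribosomal genes had a mean below 0 after pepper, 2 of 3 after the combination and 1 of 3 after pyrethrin; without the arrays of foreign title mRpL54 was above 0 after pepper.

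Import was represented by Tim9a, a small chaperone of the intermembrane space that escorts hydrophobic precursors, and Tom40, the pore of the outer membrane. Tim9a stood at 0.29, 0.59, 0.25 and 0.41 in pyrethrin replicates 1, 2, 4 and 5. The mean was 0.39 ± 0.12 (SE, n = 4), 1.31-fold, with an unadjusted p of 0.00643 and an adjusted p of 0.304 in limma. The arrays themselves gave a mean of 0.13 before the dye effect of -0.26 was taken off, with 3 of 4 above 0. That dye effect was -0.56 ± 0.09 (SD, n = 4) over the pepper pairs and 0.04 ± 0.13 (SD, n = 4) over the combination pairs. With the pepper pairs alone as its source, the pyrethrin mean of Tim9a was 0.68 and passed the threshold (limma adjusted p = 0.0144), and with the combination pairs alone it was 0.09 (limma adjusted p = 0.751). The size of the Tim9a value after pyrethrin thus depended on which pairs gave the dye effect.

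Tim9a also lay above 0 in 4 of 4 pepper extracts, at 0.15, 0.43, 0.21 and 0.08 in replicates 1 to 4, with a mean of 0.21 ± 0.11 (limma adjusted p = 1). These means joined arrays of opposite sign. With the treated RNA in Cy5 the ratio was 0.66, 1.12, 0.75 and 0.56, and in Cy3 it was -0.37, -0.26, -0.33 and -0.41, so every pepper extract changed sign with the dye. Without the 2 arrays of foreign title the mean was 0.03. In the combination Tim9a stood at -0.23, -0.17, -0.15 and 0.45 in replicates 2, 4, 5 and 6, and there the 2 arrays of an extract agreed in sign in 3 of 4 extracts, all but replicate 4. Combination minus pyrethrin was -0.41 (interval -0.76 to -0.05; limma unadjusted p = 0.0279, adjusted p = 0.359), with overlapping extracts.

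Tom40 lay below 0 in 4 of 4 pyrethrin extracts, between -0.19 and -0.07, with a mean of -0.12 ± 0.11 (limma adjusted p = 0.73). It averaged 0.04 after pepper and 0.14 ± 0.10 after the combination (0.07 without replicate 4), and its combination minus pyrethrin difference of 0.26 ± 0.14 was the largest positive one of the 15 genes in that comparison. The 2 import genes thus lay on opposite sides of 0 after pyrethrin.

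By subset, the median log2 ratio of the 10 respiration genes was -0.01 after pepper, -0.13 after the combination and 0.03 after pyrethrin. The 3 ribosomal genes had medians of -0.13 (0.08 without the arrays of foreign title), -0.02 and 0.01, and the 2 import genes of 0.13, 0.06 and 0.13. Over all 11526 features the medians were 0.0043, 0.0146 and -0.0056. After the combination 2 of 10 respiration genes were above 0, against 53.7% of all features. After pyrethrin 8 of 10 respiration genes were above 0, against 48.6% of all features, and after pepper 5 of 10, against 51.4%. The pyrethrin count depended on the dye correction, and without it the respiration median after pyrethrin was -0.20. Of the genes counted, COX7C (0.0006), ND-B8 (0.0124) and UQCR-11L (0.0158) lay close to 0. These genes and COX6AL (0.0487) changed sign between the dye effect of the pepper pairs and that of the combination pairs.

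In none of the 3 subsets did the extract medians of one treatment separate from those of another. The respiration median stood at -0.11, -0.38, -0.24 and 0.07 in combination replicates 2, 4, 5 and 6, at -0.12, 0.16, -0.04 and 0.09 in pepper replicates 1 to 4, and at 0.09, -0.12, 0.20 and -0.02 in pyrethrin replicates 1, 2, 4 and 5. Averaged over the 4 extracts these medians were -0.17 ± 0.19 (SD, n = 4) after the combination, 0.02 ± 0.13 after pepper and 0.04 ± 0.14 after pyrethrin. The ribosomal median was below 0 in 4 of 4 pepper extracts (-0.29 to -0.06) and ran from -0.44 to 0.36 in the combination. The import median was above 0 in 4 of 4 pepper extracts (0.04 to 0.26), in 2 of 4 combination extracts and in 4 of 4 pyrethrin extracts (0.03 to 0.25), and rests on 2 genes. From the fitted means it was -0.05 after pyrethrin without the dye correction, and 0.0022 with the dye effect of the combination pairs alone. Of the import genes, Tim9a changed sign with the dye in every pepper extract.

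**Figure D3:**
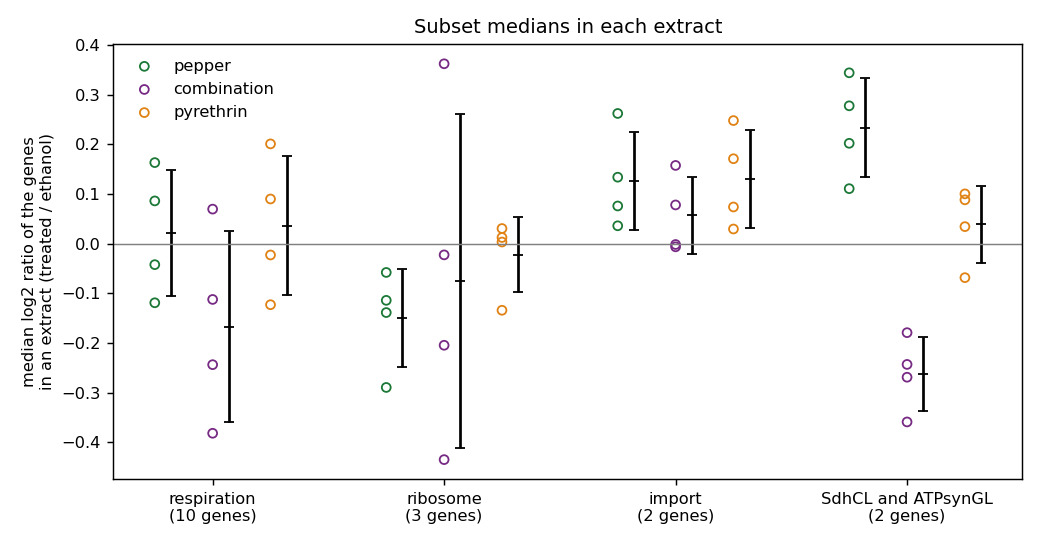
Median log2 ratio of treated over ethanol (vertical axis) over the genes of each subset in each extract (open circles, 4 per treatment), with the mean over extracts and its SD as black bars. The circles of the 3 treatments overlap for respiration, ribosome and import. For the pair SdhCL and ATPsynGL they lie at 0.11 to 0.34 after pepper, -0.07 to 0.10 after pyrethrin and -0.36 to -0.18 after the combination. Pepper replicate 3 holds ATPsynGL only, and ATPsynGL alone overlaps between pepper and the combination. The pair was chosen with earlier results known, and the share over other pairs of features was not computed.

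The number of genes with 1 sign in every measured extract of a treatment was 4 of 15 after pepper (14.1% of all features), 2 after the combination (15.7%) and 3 after pyrethrin (19.7%). These were SdhCL, ND-51, Tim9a and mRpL54 after pepper, SdhCL and ATPsynGL after the combination, and Tim9a, Tom40 and mRpL16 after pyrethrin. None of the 15 kept 1 sign across all extracts of all 3 treatments, as 0.217% of features did.

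Several genes moved together from extract to extract whatever the treatment. ND-13A and ND-B8, both of complex I, correlated at r = 0.928 (Spearman's rho 0.909) across the 12 extracts, and at 0.786 without combination replicates 4 and 6, the extracts with the lowest and highest ND-13A. ND-13A and COX7C, of complex IV, correlated at 0.918, mRpL13 and ND-B8 at 0.831, and ND-13A and mRpL13 at 0.82. Tom40 ran the opposite way, at -0.714 with ND-13A and -0.776 with ND-B8. SdhCL correlated with ND-13A at -0.176 over 11 extracts, and at -0.44 after the treatment means were subtracted.

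The values of one extract share their arrays, their control extract and their dye correction, so these correlations are descriptions. They were also present within each dye orientation, where the reading of the ratio makes no difference: ND-13A and ND-B8 correlated at 0.936 over the 12 Cy3 arrays and at 0.833 over the 8 Cy5 arrays, and ND-13A and COX7C at 0.935 and 0.835. Over all 105 pairs of the 15 genes the median r was 0.0866, with 28 pairs above 0.5 and 10 below -0.5. Correlations of this size with ND-13A were common on the arrays, since 20.4% of all features exceeded 0.5 and 21.3% lay below -0.5. The values of the closest genes were rarer: 0.902% of features correlated with ND-13A at least as highly as ND-B8 did, 1.2% as COX7C, 5% as mRpL13 and 8.24% as UQCR-11L.

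Markers of flight and body muscle, a tissue rich in mitochondria, were set beside ND-13A. The mean log2 ratio of the 8 of 21 listed muscle genes that were measured was -0.14, -0.27, -0.13 and 0.24 in combination replicates 2, 4, 5 and 6, so the list mean was lowest in replicate 4 and highest in replicate 6, as ND-13A was. Of the 8 genes, 3 had both that lowest and that highest extract, and Tm2 and Prm had the reverse. After pyrethrin the list mean was 0.09, 0.19, 0.03 and -0.01 in replicates 1, 2, 4 and 5, highest in replicate 2, where ND-13A was lowest. It ran from 0.02 to 0.20 after pepper. Above 0 were 5, 3 and 6 of the 8 genes after pepper, the combination and pyrethrin, against 51.4%, 53.7% and 48.6% of all features. The part of muscle RNA in these values was not tested.

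**Figure D4:**
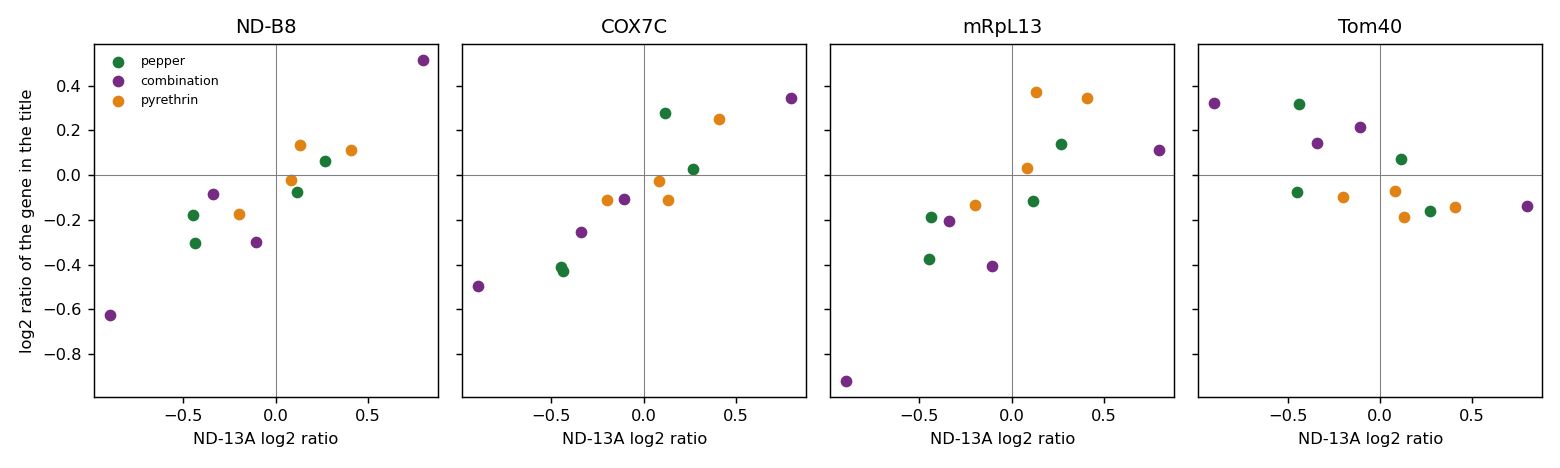
Log2 ratio of ND-B8, COX7C, mRpL13 and Tom40 (vertical axes, 1 panel each) against that of ND-13A (horizontal axis), with 1 point for each of the 12 extracts coloured by treatment. ND-B8 (r = 0.928), COX7C (0.918) and mRpL13 (0.82) lie along a rising line and Tom40 (-0.714) along a falling one, and the outermost points are combination replicates 4 and 6.

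Dye effects were large for these genes. Their median size was 0.167 on the log2 scale, against 0.123 over all features, and 13 of 15 were below 0, that is, lower with the treated RNA in Cy3. They ran from -0.39 for ND-13A to 0.38 for ND-51. Before the correction the pyrethrin arrays gave -0.29 for ND-13A, -0.33 for ND-B8, -0.36 for UQCR-11L, -0.32 for COX7C and 0.46 for ND-51, and after it 0.11, 0.01, 0.02, 0 within its error and 0.08. For 10 of 15 genes the dye effect was larger in size than the corrected pyrethrin value, so the pyrethrin values rest on a correction measured in extracts of the other 2 treatments. For 9 of the 15 genes the pyrethrin mean had one sign with the dye effect of the pepper pairs and the other sign with that of the combination pairs.

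Read by channel, as Cy5 over Cy3, the same arrays give other values. Of the 15 genes, 8 changed sign after pepper, 11 after the combination and 10 after pyrethrin, and 7, 6 and 0 of them passed the adjusted threshold in limma, against 19.6%, 16.6% and 0.781% of all features. In dye-exchanged extracts this reading turns the sign of the Cy3 array before averaging. A pepper or combination value is then the dye effect of those pairs with its sign turned. With the ratio read as deposited, such values and their p-values measure dye effects and are not a second measurement of the treatment. After pepper SdhCL was 0.52 as deposited and 0.37 by channel (limma adjusted p = 0.0147), with a dye effect of -0.37 over the pepper pairs. Tim9a was 0.21 and 0.56, with a dye effect of -0.56. COX7C after pepper went from -0.13 to 0.31, and ATPsynGL after the combination from -0.31 to 0.12. The positive residual correlations of dye-exchanged arrays are the reason why the values were used as deposited.

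**Figure D5:**
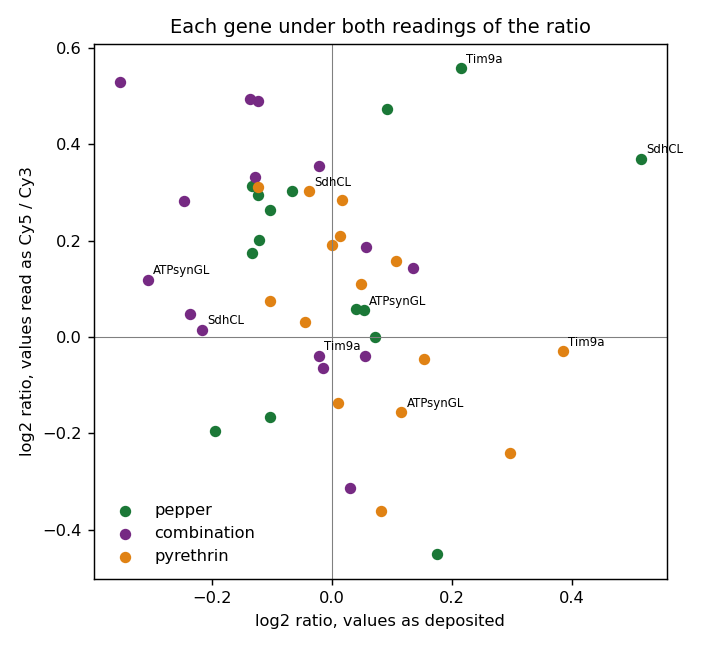
Fitted log2 ratio of each of the 15 genes after each treatment, with values as deposited on the horizontal axis and read as Cy5 over Cy3 on the vertical axis. Points to the upper left and lower right of the grey lines change sign with the reading, 29 of 45 in all. SdhCL and Tim9a after pepper lie in the upper right. Vertical values of pepper and the combination are the dye effects of their pairs with the sign turned.

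Other genes, listed by name for mitochondrial function, were measured for 17 of 105 names. The list covers the citric acid cycle, membrane dynamics, chaperones, antioxidant defence and mitochondrial gene expression. Their median log2 ratio was 0.03 after pepper, -0.07 after the combination and -0.04 after pyrethrin. Above 0 were 11, 7 and 6 of 17, against 51.4%, 53.7% and 48.6% of all features. None passed the adjusted threshold in limma, against 0%, 0% and 0.0607% of all features. An unadjusted p under 0.05 was reached by 0, 2 and 0, against 3.27%, 8.7% and 9.99%. The lowest value was that of bsf, an RNA-binding protein of mitochondria, after the combination, at -0.50 ± 0.12 (4 of 4 extracts below 0, -0.79 to -0.14; limma unadjusted p = 0.000786, adjusted p = 0.448). Ccs, the copper chaperone of superoxide dismutase, was also below 0 in 4 of 4 combination extracts (-0.26 ± 0.11, and -0.10 without replicate 4) and averaged -0.12 after pepper and 0.22 after pyrethrin. Hsp60C, Drp1 and Nfs1 of this list were below 0 in every combination extract too. Of all features 15.7% had 1 sign in every measured extract after the combination.

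The highest of this list after pepper were Sod2, the manganese superoxide dismutase of the matrix (0.16 ± 0.10, and 0.07 without replicate 1), and Ogdh, an enzyme of the citric acid cycle (0.13 ± 0.10), each above 0 in 4 of 4 extracts. After the combination they were Trx2 (0.18 ± 0.11, and 0.04 without replicate 6), and Miro, a GTPase of the outer membrane that links mitochondria to their transport (0.12 ± 0.10). Trx2 is a thioredoxin listed by its name, and whether its protein lies in mitochondria was not examined. After pyrethrin Sod2 stood at 0.15 ± 0.11 beside Ccs, and at 0.06 without replicate 2. The lowest there were Hsp60B, a chaperonin paralog (-0.25 ± 0.12, 4 of 4 below 0), and tomboy20, a paralog of an import receptor (-0.22 ± 0.19), which was also the lowest after pepper (-0.17 ± 0.18). The tomboy20 mean after pepper was 0.09 without replicate 1, and that after pyrethrin -0.0081 without replicate 5. MCU after pepper and Sod2 after pyrethrin were also above 0 in 4 of 4 extracts. Ccs after pepper and Hsp60C after pyrethrin were below 0 in 4 of 4. Of all features 14.1% had 1 sign in every measured extract after pepper and 19.7% after pyrethrin.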

How the data were processed

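The deposited table holds log2 ratios of the 2 channels of each array; the base is inferred from the values, whose largest size of 14.3 is beyond the 11.1 that natural logarithms of 16-bit signals can reach. How the authors normalized the ratios, corrected background and removed spots is not given in the sources used here; 5.36% of the values are missing. Signal intensities were not used here, so the number of extracts limits the precision. Groups came from the channel 2 source names.

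Each array's median was subtracted and spots of a single current symbol, from the platform annotation updated by gene identifier to RefSeq, were averaged (5666 spots; 152 with several symbols and 11078 without one were kept under their own numbers). Dye-exchanged arrays of an extract were averaged, and an extract had no value where either array lacked the gene. Pyrethrin arrays were corrected by each feature's mean dye effect over the exchanged pairs (at least 4 pairs). That effect was subtracted as a fixed value. Its own error is therefore missing from the standard errors, intervals and p-values of pyrethrin and of differences with pyrethrin. The direction check gave a mean residual correlation of 0.196 between partners and -0.0648 between others (exact one-sided permutation p = 0.00174 over 576 pairings). Raw partner correlations ran from -0.226 to 0.293 and were negative in 6 of 8 extracts.

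The 12 extracts entered 1 limma fit (limma 3.58.1, R 4.3.3, statmod 1.5.0) with treatment means and with weights of 1.02 for averaged pairs and 0.966 for single arrays. Extracts of the same treatment set against the same control extract formed a random block (correlation 0.0646), which joined pyrethrin extracts only. Control extract numbers also recur between treatments, and the labels do not say whether these are the same RNA. Such sharing was not modelled in the differences between treatments. The pyrethrin extracts shared 2 control extracts. Tests were two-sided, adjusted by Benjamini and Hochberg over all 11526 features, 2169 of them with a symbol. The fit was tested on simulated data. The labels do not say whether extracts came from separate cultures, so p-values measure the spread between these extracts.

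The genes, subsets and lists were chosen with earlier results of these data known. Named were SdhCL and ATPsynGL throughout, genes past the threshold, the highest and lowest gene of each subset after each treatment, genes with 1 sign in every extract, the extremes of each difference, and up to 2 highest and 2 lowest of the other mitochondrial list; genes described for their co-variation or spread were chosen after their values were seen. Alternatives covered the reading of the ratio, the dye correction, arrays and extracts left out, scaling, centring, weights, blocks, the filter and the averaging of spots.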

Additional observations from a re-analysis of the deposited data

Results flagged for a closer look

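Values of single extracts set far from the other 3 of their group were found in 4 of 43 groups of 4 extracts. The share over all features was not computed, and the groups share extracts and arrays, so this count is a description. ATPsynGL stood at 0.5078 in pyrethrin replicate 4, against -0.0331 to 0.0187 in the other extracts. SdhBL stood at 0.1824 in the same extract, against -0.1504 to -0.105. mRpL16 stood at 0.0287 in pyrethrin replicate 5, against 0.0032 to 0.0055, a gap that is large only beside the narrow range of the others. Tim9a stood at 0.4543 in combination replicate 6, against -0.2266 to -0.1488.

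SdhCL was above 0 in every measured pepper extract and below 0 in every combination extract. The difference of combination minus pepper was -0.7333 on the log2 scale, tested in the same limma fit (unadjusted p = 0.000857, adjusted p = 0.886). Of 45 pairs of a gene and a difference between treatments, 1 had this pattern. Of all features 0.92% had it in combination minus pepper, 2.26% in combination minus pyrethrin and 1.16% in pyrethrin minus pepper.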

How the results depend on the processing

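The counts of features called, the subset medians and the 44 gene results named by the rule were recomputed under 18 other settings and without each of the 12 extracts; the marker lists and other gene values were not, and correlations only as the text gives them. Of the settings, 3 were chosen after seeing the data (without combination replicates 4 and 6 together, and the dye effect from pepper or from combination pairs alone). Of 716 gene values under the other settings 48 changed sign, 29 of them when the ratio was read by channel, and of 528 without 1 extract 11 did. As deposited, 0 features passed after pepper, 0 after the combination, 7 after pyrethrin and 0 in each difference, with 377, 1003, 1151, 534 (combination minus pepper), 1391 (combination minus pyrethrin) and 648 (pyrethrin minus pepper) at an unadjusted p under 0.05 in limma. A model on all arrays with a dye term, also in limma, called 0 in each. The cause of the changes below was not tested.

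Read by channel, 2264, 1918 and 90 features passed after pepper, the combination and pyrethrin, and 235, 43 and 9 in combination minus pepper, combination minus pyrethrin and pyrethrin minus pepper. By-channel values of pepper and the combination are the dye effects of their pairs with the sign turned. The respiration median became 0.28 after pepper and 0.15 after the combination, the ribosome median 0.36 after the combination and the import median 0.31 after pepper. After pepper Ccs became 0.17, COX7C 0.31, Ogdh -0.0036, Sod2 -0.32 and tomboy20 0.13. After the combination ATPsynGL became 0.12, Ccs 0.46, Miro -0.19, mRpL13 0.53, mRpL16 -0.039 and SdhCL 0.015. After pyrethrin ATPsynGL became -0.16, Ccs -0.090, COX7AL -0.24, Hsp60B 0.085, mRpL13 -0.046, mRpL54 0.076, SdhBL 0.031, SdhCL 0.30, Sod2 -0.23, Tim9a -0.030, Tom40 0.31 and tomboy20 0.39. ATPsynGL became 0.064 in combination minus pepper, 0.28 in combination minus pyrethrin and -0.21 in pyrethrin minus pepper. In combination minus pyrethrin mRpL13 became 0.58 and Tom40 -0.17, and in pyrethrin minus pepper COX7AL became -0.54.

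Without the dye correction, 132 features passed after pyrethrin, 1 in combination minus pyrethrin and 1 in pyrethrin minus pepper. The pyrethrin medians became -0.20 (respiration), -0.18 (ribosome) and -0.049 (import), Ccs became -0.10, mRpL13 -0.20 and ATPsynGL in pyrethrin minus pepper -0.024. With the dye effect from pepper pairs alone, 148 features passed after pyrethrin and 29 in combination minus pyrethrin, the import median after pyrethrin was 0.2588, and mRpL13 was -0.0241, SdhBL 0.0614, SdhCL 0.1641 and Tim9a 0.6838 there. With that from combination pairs alone, 118 passed after pyrethrin, 48 in combination minus pyrethrin and 1 in pyrethrin minus pepper, and after pyrethrin the ribosome median and mRpL54 were 0.1715 and the import median 0.0022. On Cy3 arrays alone mRpL54 in combination minus pepper was -0.38. Without the arrays of foreign title the ribosome median after pepper was 0.083, Ccs 0.0049 and mRpL54 0.093 after pepper, mRpL54 0.036 after pyrethrin and -0.11 in combination minus pepper. Without the pyrethrin arrays of control extract 3, 1 feature passed in combination minus pyrethrin and SdhBL after pyrethrin was 0.039. Without those of control extract 4, 0 passed after pyrethrin (604 at an unadjusted p under 0.05), and ATPsynGL was -0.0072, COX7AL -0.012 and tomboy20 0.10 there, and ATPsynGL -0.060 in pyrethrin minus pepper. The pyrethrin count was 15 without the control block, 12 without weights, 15 with arrays scaled to equal spread, 13 where all extracts had to be measured, which leaves out SdhCL and COX7AL, 4 where 2 sufficed, and 11 without combination replicates 4 and 6, where mRpL16 after the combination was -0.094. With the median of spots SdhBL after pyrethrin was 0.034.

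Leaving out 1 extract, the features called ran from 0 to 3 after the combination (3 without replicate 4, 1 without replicate 6), from 0 to 9 after pyrethrin (0 without replicate 1 or 4, 1 without replicate 5), from 0 to 3 in combination minus pyrethrin (3 without combination replicate 5) and from 0 to 1 in pyrethrin minus pepper (1 without pepper replicate 4). Gene values that crossed 0 were ATPsynGL after pyrethrin (-0.015 to 0.17) and in pyrethrin minus pepper (-0.068 to 0.11), SdhCL after pyrethrin (-0.12 to 0.051), mRpL16 (-0.047 to 0.22) and Tim9a (-0.18 to 0.046) after the combination, and Tom40 (-0.054 to 0.11) and tomboy20 (-0.33 to 0.086) after pepper. Respiration medians ran from -0.31 to -0.01 after the combination, without replicate 6 and replicate 4. SdhCL after pepper stayed between 0.37 and 0.60, and ATPsynGL after the combination between -0.40 and -0.22.

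Replicate numbers are shared between treatments but did not pair the extracts: 1 of 8 same-number pairs correlated above 0.1 (-0.326 to 0.149). Pairing by control extract number was not examined. With a replicate block 0 features passed in each difference, with 430, 1269 and 424 at an unadjusted p under 0.05 in combination minus pepper, combination minus pyrethrin and pyrethrin minus pepper, and SdhCL in combination minus pepper was -0.63.

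Precision is limited by 4 extracts per treatment, by single arrays for pyrethrin and by spots that agreed poorly for SdhCL, ATPsynGL and COX6AL; signal over background was not used here.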

Other observations

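SdhBL was printed as 2 pairs of spots that differed after pyrethrin. The first pair averaged -0.30 with 1 of 4 extracts above 0, and the second averaged 0.12 with 4 of 4 above 0. After pepper the pairs averaged -0.17 (3 extracts) and -0.05, and after the combination -0.29 and -0.19. The 2 pairs of ND-13A averaged -0.10 and -0.18 after the combination and ran from -0.88 to 0.92 and from -0.92 to 0.67, the same order of size for both.

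ATPsynGL and SdhBL correlated at r = 0.79 over the 12 extracts (rho 0.727) and at 0.641 without pyrethrin replicate 4 and combination replicate 2, the extracts farthest from the median of ATPsynGL; over Cy3 arrays alone the value was 0.338 and over Cy5 arrays 0.568.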
